A study of Mus musculus with 7 samples.

Results

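The 10 genes described here encode Notch receptors (Notch1, Notch2 and Notch3), Notch ligands (Dll1, Dll3 and Jag1) and transcription factors of the Hes and Hey families that Notch signalling is known to induce (Hes1, Hes5, Hey1 and Hey2). They were taken by gene symbol from a list of names, and all 10 were found among the 49315 gene identifiers of the count data and were among the 18352 genes with enough counts for a test. The libraries were made from primary mouse oligodendroglia that had differentiated in culture for 6 days, and there were 7 of them. The 4 wildtype control libraries (genotype Klf13-wt) and the 3 Klf13 knockout libraries (genotype Klf13-ko) came from brains of newborn pups of both sexes. Cells of both groups were shaken off mixed glial cultures as oligodendrocyte progenitor cells (OPCs), depleted of microglia and then kept in SATO medium with T3 and T4, the thyroid hormones that promote oligodendrocyte differentiation. The knockout is constitutive, so that every cell type in the dish, and the animal before the cells were taken, lacked the Krüppel-like transcription factor KLF13.

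In Notch signalling, a ligand of the Delta or Jagged family on one cell binds a Notch receptor on its neighbour, the receptor is cut by ADAM proteases and then by γ-secretase, and its intracellular part enters the nucleus, where it joins the DNA-binding protein RBPJ and Mastermind coactivators and switches on Hes and Hey genes. In the developing brain the pathway is known for keeping neural progenitors undifferentiated and for favouring astrocytes over neurons. In the oligodendrocyte lineage, Jagged1 acting on Notch1 and the induction of Hes5 are known for holding OPCs back from maturation.

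Promoter sequences are shown first for Hes5 and Hey2, because of the 8 members found in a RefSeq table of promoters (build GRCm38.p6) they were the members whose window contained the core of the RBPJ recognition sequence, TGGGAA. Each window of the table covers 250 bases before and 50 bases after a transcription start. The Hes5 promoter (chr4:154960673-154960922, plus strand) and the part of the Hey2 window that lies outside the gene as annotated with the counts (chr10:30842802-30843033, minus strand) are printed 5′ to 3′, with TGGGAA or its reverse complement TTCCCA in capitals.
Hes5: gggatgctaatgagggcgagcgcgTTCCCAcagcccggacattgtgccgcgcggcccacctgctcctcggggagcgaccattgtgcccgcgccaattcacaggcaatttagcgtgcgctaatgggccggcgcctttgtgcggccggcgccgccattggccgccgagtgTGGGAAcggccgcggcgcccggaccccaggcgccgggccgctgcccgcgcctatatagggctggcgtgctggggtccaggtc
Hey2: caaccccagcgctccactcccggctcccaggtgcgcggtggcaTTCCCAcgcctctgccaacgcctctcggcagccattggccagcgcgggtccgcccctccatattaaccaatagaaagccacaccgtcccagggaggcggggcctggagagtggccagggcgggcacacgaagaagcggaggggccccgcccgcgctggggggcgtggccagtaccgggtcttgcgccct

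In Hes5, the first match begins 226 bases before the start and reads TTCCCA, and the second begins 82 bases before the start and reads TGGGAA. In Hey2, TTCCCA begins 207 bases before the start, and a TGGGAA match outside the printed stretch begins 3 bases before the start and runs across it. Both windows thus held 1 match on each strand, as did 1.81% of the 32851 windows in the table, whereas 25.6% held at least 1 match. The windows of Notch1, Notch2, Notch3, Dll1, Dll3 and Jag1 contained no TGGGAA in either direction. Hes1 and Hey1 were not in the table.

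The hexamers ACACCC or ACGCCC or ACTCCC and likewise CCACCC or CCGCCC or CCTCCC, which were searched as Klf recognition sequences on both strands, occurred at least once in 76.8% of all windows, with a median of 2 matches per window. Such matches numbered 9 for Notch1, 8 for Notch2, 6 for Hey2, 4 for Notch3, 3 for Jag1, 2 in each of both Dll1 windows, 1 for Dll3 and 0 for Hes5, and none overlapped a TGGGAA match. Because Dll3 and Jag1 were the ligand genes whose transcripts changed, the stretches with their matches are shown, with the hexamers in capitals. They come from chr7:28301815-28301844 and chr2:137116607-137116636, both on the minus strand and both within the gene as annotated with the counts.
Dll3: actggcctgaagGGGCGGagcgtcccctca
Jag1: ttttttttCCTCCCCTCCCTCCCcgcgttt

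The Dll3 match is a CCGCCC on the opposite strand and begins 47 bases before the RefSeq start. The 3 Jag1 matches are all CCTCCC, and neighbouring matches share bases. These are letter matches only, and no binding was measured at them here.

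The libraries contained between 24507471 and 59596479 counts on genes, and 0.0323% to 0.0389% of them fell on the 10 Notch genes. Raw counts of a member in a library ran from 66 for Hes1 in knockout replicate 1 to 8841 for Notch1 in knockout replicate 2, so that every member was well above detection. Klf13 itself had normalised read counts of 10915, 11769, 12000 and 10670 in the control libraries and 802, 876 and 961 in the knockout libraries, as the labels require. Normalised read counts are counts divided by the library size after scaling by the trimmed mean of M values (TMM) and brought to the mean library size. Transcripts of the labelled cell type were present in every library, and summed CPM (counts scaled to the same library total) of 10 oligodendrocyte markers were 23860 to 28219 in control and 7056 to 7962 in knockout libraries, with 8 of the 10 called lower. Between 6.03% and 17.95% of counts fell on 3 genes that collect ribosomal RNA reads, with low and high shares in both groups. All tests below are edgeR's quasi-likelihood test between the 3 knockout and the 4 control libraries with Benjamini-Hochberg adjustment over the 18352 genes, and genes with an adjusted p up to 0.05 count as called.

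Of the 10 Notch genes, 3 were called. The ligand gene Dll3 and the target gene Hey1 rose in the knockout, and the ligand gene Jag1 fell. The other 7 were not called, among them Notch1 and Dll1 with levels that overlapped widely. The share of 3 in 10 has to be read against 23.8% of all tested genes that were called, 11.6% as higher and 12.2% as lower. With library sizes computed without the 100 highest genes, the split over all genes shifted from 2122 higher and 2246 lower to 2656 higher and 1673 lower, while the same 3 members were called together with Notch3. The median log2 fold change was 0.04 over the 10 members and -0.0037 over all tested genes. When the size of the log2 fold change also had to reach 1, 1 member remained, Dll3, against 7.05% of all genes (3.97% higher and 3.08% lower). Values of control and knockout libraries did not overlap for 5 of the 10 members (Notch3, Dll3, Hes5 and Hey1 higher, Jag1 lower), against 36.2% of all tested genes.

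**Figure D1:**
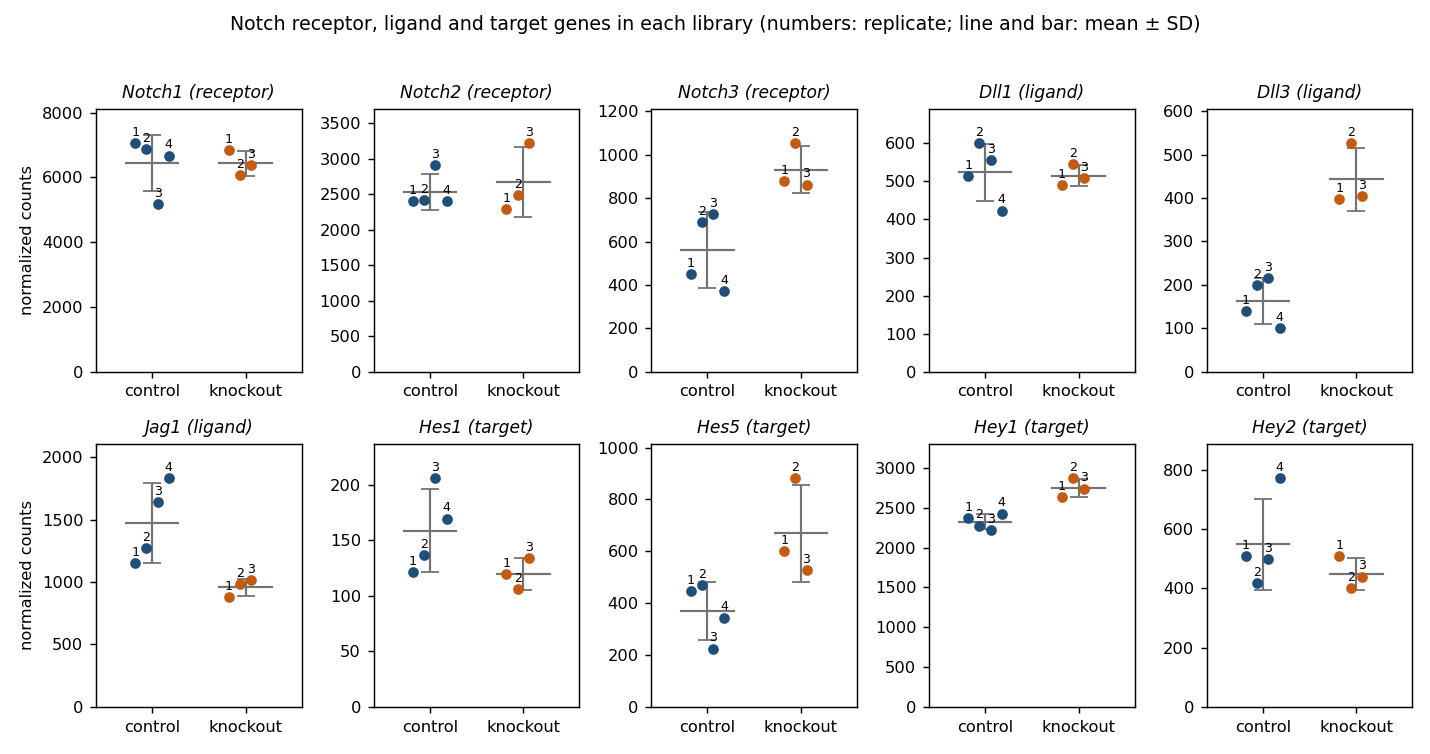
Normalised read counts of the 10 Notch genes (vertical axes, each starting at 0) in the 4 control and 3 knockout libraries (points numbered by replicate), with group means as bars. The knockout points lie above all control points for Notch3, Dll3, Hes5 and Hey1 and below them for Jag1.

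The receptor genes came first. Notch1 (chr2:26457903-26516663, minus strand, coordinates of GRCm38 here and below), the receptor best known from the oligodendrocyte lineage, had normalised read counts of 7062, 6862, 5162 and 6672 in control replicates 1 to 4 and of 6843, 6077 and 6368 in knockout replicates 1 to 3. All knockout libraries fell within the control range, and control replicate 3 was the lowest of all 7. The log2 fold change was -0.0026 with a 95% interval of -0.26 to 0.26 (adjusted p = 0.989, edgeR).

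Notch2 (chr3:98013527-98150361, plus strand), a receptor also found on microglia and astrocytes, counted 2402, 2413, 2904 and 2399 in control and 2289, 2491 and 3222 in knockout libraries. The highest values belonged to replicate 3 of each group, and the groups overlapped. Its log2 fold change of 0.08 had a 95% interval of -0.22 to 0.38 (adjusted p = 0.713, edgeR). The same libraries held the highest summed CPM of 10 microglia markers in their groups, 1843 in control replicate 3 against 422 to 498 in the other controls, and 863 in knockout replicate 3 against 407 and 483 in the other knockouts, and the part of these cells in the Notch2 counts was not tested. None of the 10 microglia markers was called between the groups.

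Notch3 (chr17:32120820-32166880, minus strand), which in the vessel wall is the receptor of mural cells, counted 450, 691, 727 and 372 in control and 879, 1055 and 863 in knockout libraries. Each knockout library exceeded each control library, but control values themselves differed, with replicates 1 and 4 below replicates 2 and 3. The log2 fold change was 0.74 with a 95% interval of 0.18 to 1.30, and the adjusted p of 0.0633 (edgeR) missed the threshold. In the fit with the replicate number as a block, Notch3 was called at a log2 fold change of 0.60 (adjusted p = 0.0473, edgeR), and DESeq2's Wald test also called it (adjusted p = 0.0286). Control replicates 1 and 4 had the higher shares of ribosomal RNA reads among controls, 14.1% and 15.04% against 6.03% and 6.50%, and with this share as a covariate the log2 fold change was 1.02 (adjusted p = 0.00550, edgeR). Summed markers of mural cells and fibroblasts lay at 314.9 to 1365 CPM in control and 148 to 327 CPM in knockout libraries, with 1 of 11 tested markers called, as lower. Raw counts in a library ran from 0 to 7 for Kcnj8 and Abcc9, from 90 to 480 for Pdgfrb and from 2775 to 7413 for Acta2. The highest mean counts of this list were those of the collagen genes Col1a1 and Col1a2. Col1a1 had normalised read counts of 5815, 3686, 23150 and 17704 in control and 2441, 1307 and 3937 in knockout libraries. Log2 fold changes were negative for 10 of the 11 tested markers and 0.02 for Rgs5. The part of mural cells and fibroblasts in the Notch3 level was not tested.

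Reads of Notch1, Notch2 and Notch3 could also have come from overlapping genes. Exons of Notch1 and Notch3 overlap genes on the opposite strand and those of Notch2 a gene on the same strand. Summed over all 7 libraries, the overlapping genes had 180 and 15 counts for Notch1, 125 for Notch2 and 12 for Notch3. The strand setting of the counting was not given in the sources used here.

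Among the ligand genes, Dll1 (chr17:15367354-15376872, minus strand), a Delta ligand that activates receptors on neighbouring cells, counted 514, 601, 556 and 423 in control and 491, 545 and 508 in knockout libraries. Knockout values sat inside the control range. Its log2 fold change was -0.02 with a 95% interval of -0.32 to 0.28 (adjusted p = 0.919, edgeR). Exons of Dll1 overlap A930024N18Rik on the opposite strand.

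Dll3 (chr7:28293553-28302238, minus strand) encodes a divergent Delta protein that is known to stay largely inside the cell and to dampen Notch signalling there rather than to activate receptors on other cells. It counted 139, 200, 215 and 101 in control and 397, 527 and 404 in knockout libraries. The lowest knockout library stood well above the highest control library. Dll3 thus had a log2 fold change of 1.44 with a standard error of 0.27 and a 95% interval of 0.82 to 2.06 (adjusted p = 0.00923, edgeR), equal to a 2.71-fold higher level. Dll3 stayed called in all 16 alternative fits, with log2 fold changes between 1.27 and 1.74 and adjusted p between 9.54e-06 and 0.0407.

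The knockout libraries also contained more transcripts of neurons. Summed CPM of 10 neuron markers were 194, 239, 161 and 143 in control and 424, 587 and 390.3 in knockout libraries, with 8 of the 9 tested markers called higher, and knockout replicate 2 was highest for both. Raw counts in a library ran from 0 to 13 for Slc17a7, the transporter of excitatory neurons, and from 505 to 7548 for Gad1, the enzyme that makes GABA. Summed CPM of 10 astrocyte markers were 2437 to 3405 in control and 4782 to 5612 in knockout libraries, with 8 of 10 called higher. Of 10 OPC markers 3 were called higher, with sums of 5907 to 6709 CPM in control and 6650 to 6841 CPM in knockout libraries. The part of each cell type in the Dll3 level was not tested, and in bulk RNA fewer cells of a type cannot be told apart from less RNA per cell.

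**Figure D2:**
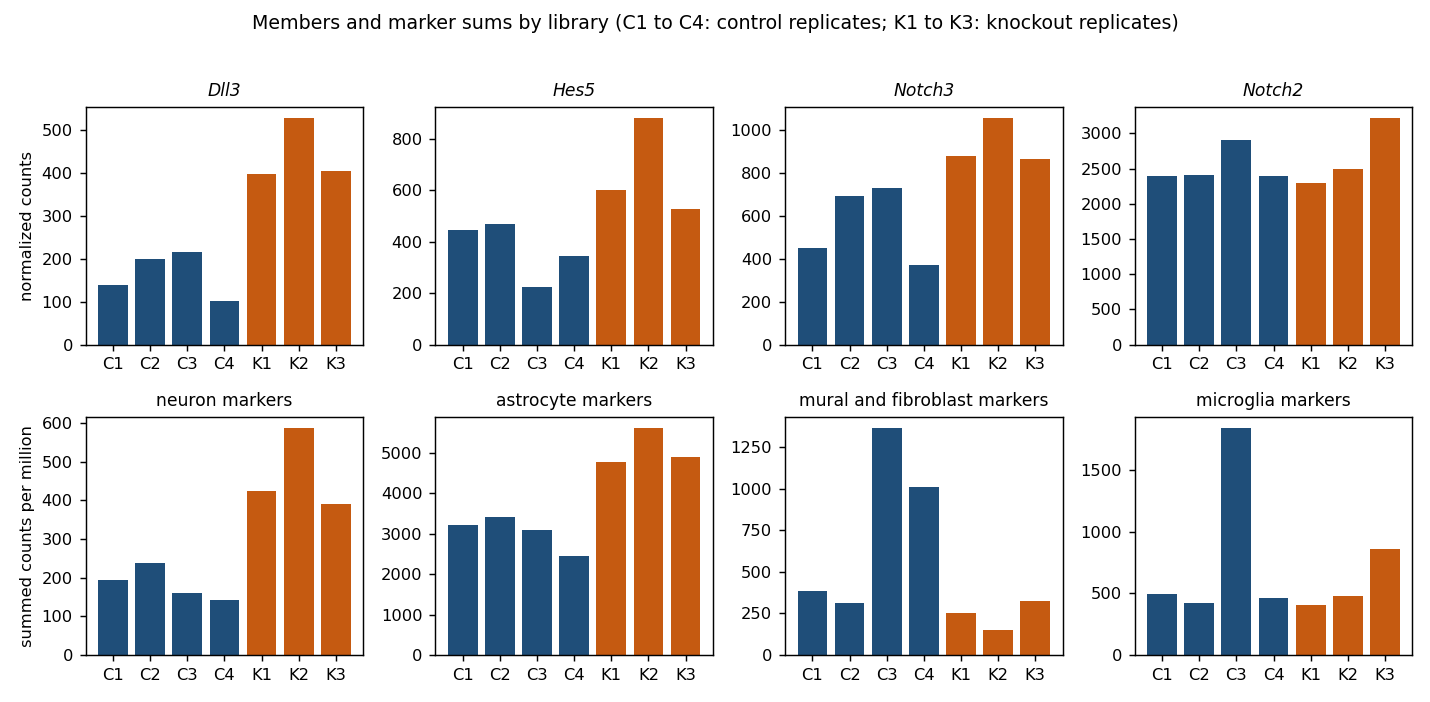
Normalised read counts of Dll3, Hes5, Notch3 and Notch2 (upper row) in each control and knockout library. The lower row shows summed CPM of marker lists for neurons, astrocytes, mural cells with fibroblasts, and microglia. Astrocyte and neuron sums are higher in all 3 knockout libraries, and microglia sums peak in control replicate 3 at 1843 CPM.

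Jag1 (chr2:137081456-137116644, minus strand), the Jagged ligand that activates Notch on OPCs, moved the opposite way. It counted 1152, 1269, 1638 and 1832 in control and 877, 981 and 1013 in knockout libraries. The groups did not overlap, yet the gap between knockout replicate 3 and control replicate 1 was smaller than the spread among controls. The log2 fold change was -0.62 with a standard error of 0.17 and a 95% interval of -1.01 to -0.23 (adjusted p = 0.0342, edgeR), so that the level fell by 35.0%.

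Control replicates 3 and 4, which had the most Jag1, also had the highest summed markers of mural cells and fibroblasts, 1365 and 1013.5 CPM against 385 and 314.9 CPM in control replicates 1 and 2 and 148 to 327 CPM in the knockout. Endothelial markers, another cell type that expresses Jag1 in vessels, summed to 37.7 to 69.1 CPM in control and 30.0 to 37.4 CPM in knockout libraries, with 1 of 6 tested markers called, as lower. Raw counts in a library ran from 0 to 1 for Cldn5, from 97 to 260 for Kdr and from 667 to 2264 for Vwf. These raw counts are not scaled for library depth. The called marker, Cdh5, had normalised read counts of 116, 53.3, 295 and 288 in control and 21.7, 7.56 and 53.3 in knockout libraries. Log2 fold changes were negative for 5 of the 6 tested endothelial markers and positive for Kdr (0.29). The part of these cell types in the Jag1 level was not tested. Without both of these controls, which have the highest Jag1 values so that a smaller difference follows from leaving them out, the log2 fold change was -0.34 (adjusted p = 0.0712, edgeR, added after the values had been seen). The Jag1 call was also lost without control replicate 3 (adjusted p = 0.0634), without control replicate 4 (log2 fold change -0.48, adjusted p = 0.0692) and without any of the 3 knockout replicates (0.0830 to 0.132), all by edgeR.

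Among the target genes, Hes1 (chr16:30064384-30067796, plus strand), a repressor that keeps progenitors from differentiating, had the lowest level per length in the knockout. It counted 122, 137, 206 and 169 in control and 119, 106 and 134 in knockout libraries, with overlap between the groups. For Hes1 the log2 fold change was -0.40 with a 95% interval of -0.90 to 0.09 (adjusted p = 0.213, edgeR), and it was -0.26 without control replicate 3, the highest library, and -0.12 without control replicates 3 and 4 together.

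Hes5 (chr4:154960923-154962371, plus strand), the repressor whose promoter with both RBPJ core matches is shown above, counted 447, 470, 225 and 344 in control and 599, 882 and 527 in knockout libraries. All knockout libraries were above all controls, with a wide spread within both groups and the extremes in control replicate 3 and knockout replicate 2. The log2 fold change was 0.85 with a 95% interval of 0.20 to 1.51, and the adjusted p of 0.0650 (edgeR) missed the threshold. With the replicate number as a block the same log2 fold change of 0.85 was called (adjusted p = 0.0254, edgeR), as it was by DESeq2's Wald test (adjusted p = 0.0253). Knockout replicate 2, with the most Hes5, also had the highest neuron and astrocyte sums, and this relation was not tested. Exons of Hes5 overlap Gm20421 on the opposite strand.

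Hey1 (chr3:8663359-8667256, minus strand), a repressor of the Hey family, had the smallest spread of the members relative to its level in both groups. It counted 2372, 2276, 2223 and 2427 in control and 2638, 2872 and 2740 in knockout libraries. The groups were apart, and the spread within each was small. This gave a log2 fold change of 0.24 with a standard error of 0.06 and a 95% interval of 0.11 to 0.37 (adjusted p = 0.0206, edgeR), a rise of 18.3%. This call was lost without control replicate 2 (adjusted p = 0.0511), knockout replicate 2 (0.0764) or knockout replicate 3 (0.0671), all by edgeR.

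Hey2 (chr10:30832359-30842801, minus strand), the related factor whose promoter sequence is also shown above, counted 508, 416, 498 and 771 in control and 507, 400 and 439 in knockout libraries. Control replicate 4 was the highest library, and the other controls overlapped with the knockout. Hey2 had a log2 fold change of -0.29 with a 95% interval of -0.79 to 0.20 (adjusted p = 0.374, edgeR). It was -0.06 without control replicate 4 and -0.08 with the replicate block, so that this value rests on 1 library.

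**Figure D3:**
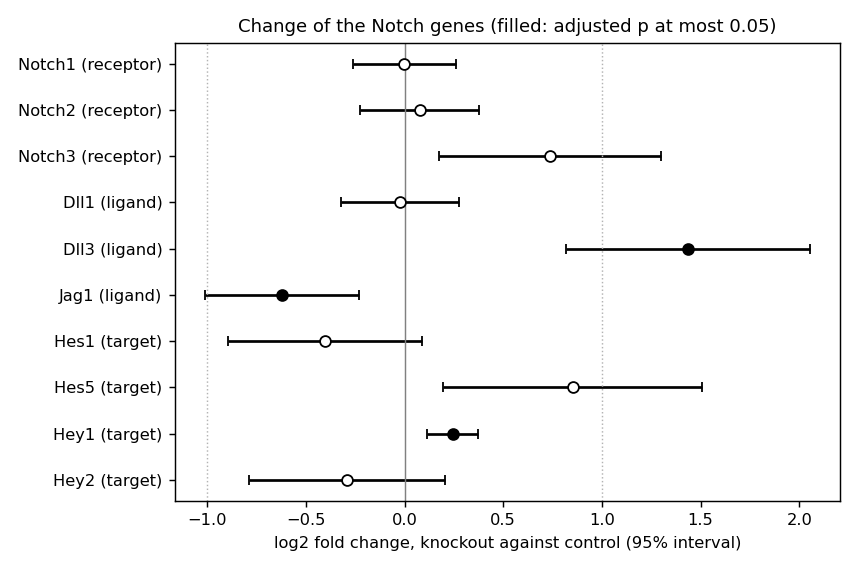
Log2 fold changes of the 10 Notch genes in knockout against control (horizontal axis) with 95% intervals from edgeR's fit, grouped as receptors, ligands and targets, and called genes marked. The interval of Dll3 runs from 0.82 to 2.06, and those of Notch1, Notch2, Dll1, Hes1 and Hey2 span 0.

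With the replicate number as a block, members called higher numbered 4 instead of 2, Dll3, Hey1, Notch3 and Hes5, and Jag1 remained the 1 called lower, while 9.49% of all tested genes were called higher and 11.1% lower in that fit. In that fit control replicate 4, which shares its number with no knockout library, does not enter the difference between the groups.

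Levels of different genes can be compared per length, here as counts per kilobase of exon and of TMM-scaled library size (RPKM). In control libraries, Hey1 had the highest level (16.2 ± 0.642 RPKM, SD, n = 4), followed by Notch1 (10.3 ± 1.39), Hes5 (6.20 ± 1.87), Jag1 (5.75 ± 1.24), Notch2 (5.34 ± 0.527), Dll1 (2.82 ± 0.409), Hey2 (2.72 ± 0.764), Hes1 (1.77 ± 0.418), Notch3 (1.58 ± 0.497) and Dll3 (1.31 ± 0.424). Ranges over libraries did not overlap between Hey1 and Notch1, between Notch1 and Hes5, or between Notch2 and Dll1. The other neighbours in this order were not separated beyond their spread.

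In knockout libraries, the order was Hey1 (19.2 ± 0.818 RPKM, SD, n = 3), Hes5 (11.2 ± 3.13), Notch1 (10.3 ± 0.618), Notch2 (5.63 ± 1.04), Jag1 (3.74 ± 0.277), Dll3 (3.54 ± 0.583), Dll1 (2.78 ± 0.149), Notch3 (2.64 ± 0.301), Hey2 (2.22 ± 0.269) and Hes1 (1.34 ± 0.158). Hey1 again stood above the next gene, and Dll3 had moved from the last place to the sixth, with a range that overlapped that of Jag1 and not that of Dll1. Hes5 and Notch1 could not be separated.

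The ratio of Dll3 to Jag1 in these levels per length was 0.247, 0.322, 0.268 and 0.113 in control and 0.926, 1.10 and 0.816 in knockout libraries. Jag1 thus exceeded Dll3 in every control library, whereas both were of similar level in each knockout library. The ratio of Hes5 to Hes1 was 5.50, 5.13, 1.64 and 3.04 in control and 7.52, 12.5 and 5.88 in knockout libraries. Hes5 had the higher level of this pair in every library, and the ratios of the groups did not overlap. Both ratios restate the levels above and were not tested.

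**Figure D4:**
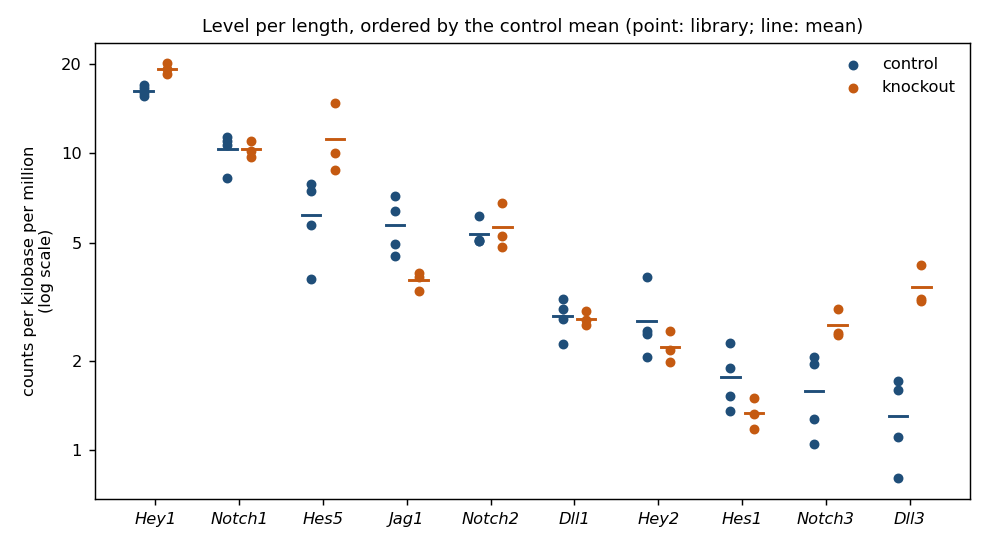
Levels of the 10 Notch genes per length (RPKM, log axis) in each control and knockout library, ordered by the control mean. Hey1 has the highest level in both groups at means of 16.2 and 19.2 RPKM, and Dll3 moves from 1.31 to 3.54 RPKM.

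The other components of the pathway were described from a list of 62 genes in 8 roles, of which 60 could be tested. Of these, 6 were called higher and 7 lower in the knockout, or 21.7% against 23.8% of all tested genes, and the median log2 fold change was 0.04. Hes3 was the 1 called gene of the list whose log2 fold change also reached a size of 1. With the replicate number as a block, 10 of the 60 were called higher and 11 lower, beside 9.49% and 11.1% of all tested genes, and this departure from all genes was not tested.

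Of the remaining receptor and canonical ligand genes, Jag2, the second Jagged ligand, rose. It counted 113, 185, 112 and 86.1 in control and 222, 294 and 189 in knockout libraries, with a log2 fold change of 0.92 (adjusted p = 0.0499, edgeR). The knockout libraries were above all controls, but by little between knockout replicate 3 and control replicate 2, and the call was lost without each library except control replicate 2 and also with DESeq2's size factors. Dll4, a Delta ligand of vessels named after its values had been seen, had low counts of 4.6 to 13.1 in control and 16.8 to 30.7 in knockout libraries, without overlap, and was not called at a log2 fold change of 1.30 (adjusted p = 0.0547, edgeR). Notch4, the receptor of endothelial cells, was not called at a log2 fold change of -0.48 (adjusted p = 0.306, edgeR), which was -0.14 without control replicate 3, the library with 373 normalised counts against 155 to 203 in the other controls.

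Among genes for non-canonical ligands, 2 of 6 fell and none rose, beside 12.2% of all tested genes called lower. Dlk1, a Delta-like protein that lacks the domain for receptor activation, counted 344, 363, 437 and 225 in control and 195, 195 and 193 in knockout libraries, with a log2 fold change of -0.81 (adjusted p = 0.0321, edgeR). With the share of ribosomal RNA as covariate the call was lost (log2 fold change -0.67, adjusted p = 0.0627, edgeR). The knockout libraries were nearly identical in Dlk1, while the controls spread down to 225 in replicate 4. Cntn1, an adhesion molecule of axons and oligodendroglia, fell by 0.26 on the log2 scale (adjusted p = 0.0244, edgeR) in the fit reported but was not called with upper quartile scaling (adjusted p = 0.0618) or without the 100 highest genes (adjusted p = 0.0820), and Dner was not called (log2 fold change 0.14, adjusted p = 0.491, edgeR).

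Of the genes for receptor processing and ligand handling, 1 was called, as lower, beside 23.8% of all tested genes called (12.2% as lower). None of 6 genes for enzymes that add or extend sugars on Notch was called, with Pofut1, which adds fucose, at a log2 fold change of 0.0018 and Poglut1, which adds glucose, at 0.04. Of 10 protease genes 1 fell, Aph1a, a γ-secretase subunit, at a log2 fold change of -0.28 (adjusted p = 0.0172, edgeR). The genes of the ADAM proteases that make the first cut had log2 fold changes of -0.23 for Adam10 (adjusted p = 0.0689) and -0.30 for Adam17 (adjusted p = 0.0943, both edgeR), and in the fit with the replicate block both were called lower (adjusted p = 0.0495 and 0.0290, edgeR). None of the 4 genes for ligand endocytosis was called, with Mib1 at -0.18 and Mib2 at 0.15, both ubiquitin ligases that act in the cell that carries the ligand. With the share of ribosomal RNA as covariate, Mib1 was called lower (log2 fold change -0.28, adjusted p = 0.0126) and Mib2 higher (0.43, adjusted p = 0.0113), both by edgeR. Exons of Aph1a, Adam17 and Spen overlap expressed genes on the opposite strand, so that their counts are uncertain.

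The nuclear complex held 16 genes, of which 3 rose and 2 fell (31.2% called, against 23.8% of all tested genes). Tle4, a Groucho-type corepressor used by Hes proteins, counted 1919, 1925, 2159 and 1667 in control and 2528, 2855 and 3159 in knockout libraries, with a log2 fold change of 0.57 (adjusted p = 0.00928, edgeR). The groups were clearly apart, and the call held in all 16 alternative fits. Maml3, a Mastermind coactivator, rose by a log2 fold change of 0.58 (adjusted p = 0.0148, edgeR), and Spen, an RBPJ corepressor, by 0.27 (adjusted p = 0.0435, edgeR, and 0.0637 with the replicate block), a call lost in 10 of 16 alternatives that include DESeq2's Wald test (adjusted p = 0.0647), DESeq2's size factors (0.0506) and no filter on low counts (0.0603). The acetyltransferase gene Kat2b, named after its values had been seen, fell by 0.55 on the log2 scale (adjusted p = 0.00315, edgeR). Genes that rose in this role thus included both a coactivator and corepressors.

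Of 11 genes for receptor turnover and inhibition, 2 rose and 1 fell (27.3% called, against 23.8% of all tested genes). Fbxw7, the ubiquitin ligase subunit that marks the Notch intracellular domain for degradation, counted 1173, 1275, 1174 and 1083 in control and 1701, 1920 and 1791 in knockout libraries, with a log2 fold change of 0.62 (adjusted p = 0.00207, edgeR). Its groups were far apart relative to their spread, and the call held in all 16 alternative fits. Nrarp, a Notch target that feeds back as an inhibitor, counted 127, 156, 109 and 89.9 in control and 193, 307 and 175 in knockout libraries, with a log2 fold change of 0.91 (adjusted p = 0.0418, edgeR). Its knockout values exceeded all controls, with replicate 2 highest in both groups. Itch, a ubiquitin ligase acting on Notch, fell by 0.31 on the log2 scale (adjusted p = 0.0179, edgeR, and 0.0511 and 0.0618 with the same other scalings), and Dtx4 was not called at 0.44 (adjusted p = 0.120, edgeR) except with the replicate block (adjusted p = 0.0208, edgeR).

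The other Hes and Hey genes were low apart from Hes6. Hes3, a family member of neural progenitors, counted 32.4, 40.2, 52.6 and 40.2 in control and 1.8, 15.1 and 9.9 in knockout libraries, a log2 difference of -2.04 with a standard error of 0.46 (adjusted p = 0.0187, edgeR). All knockout values were below all controls, at low counts. Hes6, which opposes Hes1, and Heyl were not called (log2 fold changes 0.04 and 0.09, adjusted p = 0.934 and 0.911, edgeR). Hes2 and Helt had too few counts for a test. Without single libraries, the call of Maml3 was lost once (knockout replicate 2, adjusted p = 0.0620, edgeR), as was that of Hes3 (knockout replicate 3, adjusted p = 0.0614, edgeR), which was also lost without control replicates 3 and 4 together (adjusted p = 0.0877, edgeR), a fit added after the values had been seen. Calls of Aph1a, Cntn1, Dlk1, Itch, Jag2, Nrarp and Spen were each lost without 3 to 6 of the 7 libraries, among them at least 1 control and 1 knockout library, with adjusted p of 0.0507 to 0.171 (edgeR).

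**Figure D5:**
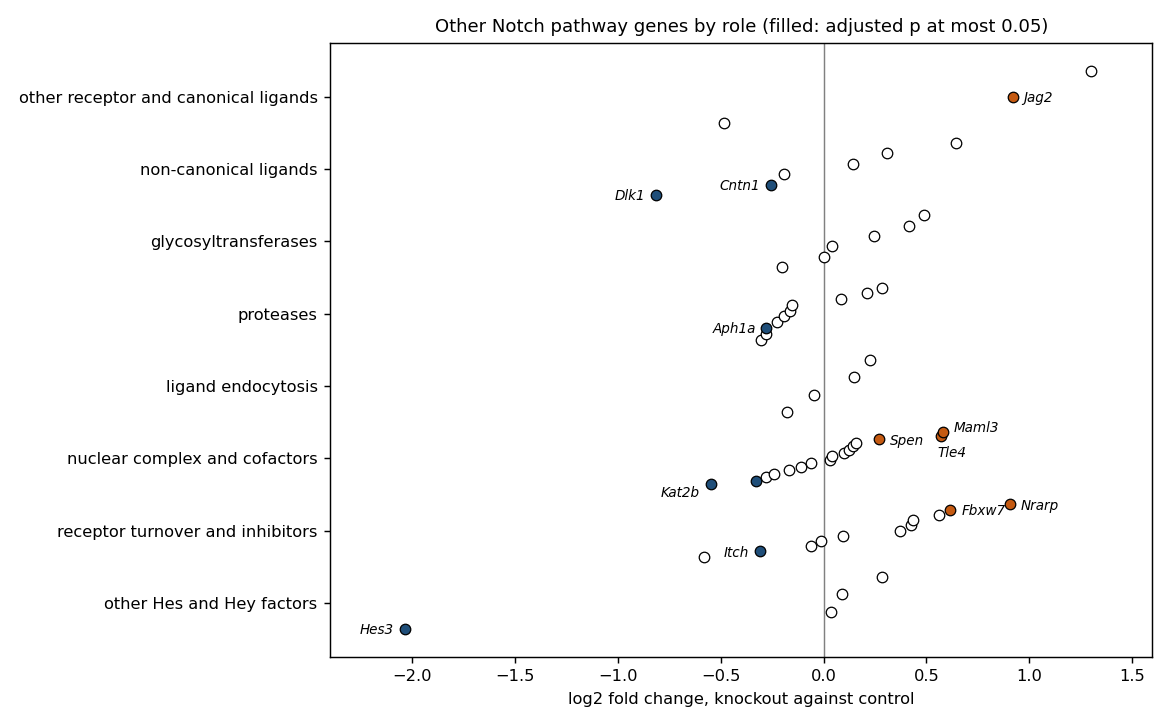
Log2 fold changes in knockout against control (horizontal axis) of the 60 tested pathway genes other than the 10 members, with 1 point per gene in rows by role (the height within a row only separates points). Filled points are the 13 called genes, 6 higher and 7 lower, of which 12 are named, with Hes3 farthest out at -2.04.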

How the data were processed

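Counts per gene from 7 libraries were used as deposited. To make these counts, the authors trimmed reads, mapped them to the mouse genome and counted unique hits within exons. Their processing notes name Trimmomatic 0.36, STAR 2.5.2b, featureCounts, Subread 1.5.2 and GRCm38. Annotation release and strand setting are not given in the sources used here. Symbols were found for 48970 of 49315 identifiers.

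Tests used edgeR 4.0.16 under R 4.3.3, with filterByExpr by group, TMM scaling, a robust quasi-likelihood fit with the group as its only term, and Benjamini-Hochberg adjustment. Intervals are 95% intervals from the standard error of that fit. The test was checked on simulated counts. The labels call the replicates biological, and 1 library comes from 1 sample.

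The labels do not say what equal replicate numbers share. Deviations from the group means correlated at 0.11, 0.46 and 0.17 across 18352 genes in the 3 same-numbered pairs. Correlations of the other pairs were -0.53 to 0.20. The highest of these, control replicate 4 with knockout replicate 1, exceeded the same-numbered pairs at 0.11 and 0.17. The number was also fitted as a block. Further alternatives were DESeq2 1.42.0 (Wald test, or its size factors in edgeR), other scalings and count filters, the ribosomal RNA share as a covariate, and leaving out libraries.

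All members, Klf13 and, per role, the 2 most abundant pathway genes and the 2 called genes with the largest fold changes were named. The values of 1 gene that this rule takes are not reported here. Members and lists were chosen with earlier results of these data known.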

Additional observations from a re-analysis of the deposited data

Results flagged for a closer look

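In the control group, 1 value of a named gene stood apart from the other libraries. Notch2 had a normalised read count of 2904 in control replicate 3, and the next control library had 2413, so that the gap took a fraction of 0.972 of the whole control range and exceeded Dixon's 95% critical value for 4 samples. Control groups of 34 genes were checked in this way, and chance alone marks a few percent of such groups. Control replicate 3 was also the library with the highest summed microglia markers, and their part in the Notch2 value was not tested.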

How the results depend on the processing

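The fold changes of Klf13, Dll3, Tle4 and Fbxw7 kept their direction and call in all 16 alternatives. The limits concern the counts of calls. Members called higher numbered 2 in the fit reported (all genes 11.6%), 4 with DESeq2's Wald test (10.7%), 4 with the replicate block (9.49%), 1 without a filter on low counts (4.51%), 1 without control replicates 3 and 4 (6.26%, chosen after seeing the data, and these are the controls with the most Jag1) and 1 to 3 when single libraries were left out (1 without control replicate 2 or knockout replicate 2 or 3, where 4.57% to 10.1% of all genes were called higher). Members called lower numbered 0 with the ribosomal RNA covariate (Jag1, adjusted p = 0.0545, edgeR, all genes 13.5%), 0 without control replicates 3 and 4 (7.91%), and 0 to 1 with single libraries left out. With that covariate, 2 members, Dll3 and Notch3, had a called log2 fold change of at least 1. Other pathway genes called higher numbered 10 with library sizes without the 100 highest genes (all genes 14.5%), 10 with the replicate block (9.49%), 10 with the ribosomal RNA covariate (14.6%) and 2 to 7 with single libraries left out (2 without knockout replicate 2, 4.57% of all genes, and 3 without knockout replicate 1, 6.35%). Those called lower numbered 11 with the replicate block (11.1%), 3 without control replicates 3 and 4 (7.91%), and 2 to 6 with single libraries left out (2 without knockout replicate 1, 6.58% of all genes, and 3 without knockout replicate 2, 7.08%). Notch3 was also called with upper quartile scaling (adjusted p = 0.0345, edgeR), and Hey1 was lost without the filter on low counts (adjusted p = 0.0684, edgeR). The block and the pairing of replicate numbers changed the calls of Notch3, Hes5, Adam10, Adam17, Dtx4 and Spen among the named genes. The causes were not tested.

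Signs also changed for genes that were not called in the fit reported. The log2 fold change of Notch1 was 0.033 with upper quartile scaling, 0.060 without the 100 highest genes, 0.0046 with at least 10 counts in every library, 0.027 with the replicate block and -0.097 to 0.059 with single libraries left out. Dll1 came to 0.018 with upper quartile scaling, 0.043 without the 100 highest genes, 0.081 with the ribosomal RNA covariate and -0.092 to 0.050 with single libraries left out. Pofut1 came to -0.013 with DESeq2's Wald test, -0.0026 with its size factors, -0.00094 without a filter, -0.018 with the ribosomal RNA covariate and -0.019 to 0.031 with single libraries left out. Hes6 came to -0.039 with the replicate block and -0.011 without control replicates 3 and 4, where Dner came to -0.029 and Heyl to 0.92. Leaving out single libraries gave -0.074 to 0.19 for Notch2, -0.20 to 0.33 for Mib2, -0.26 to 0.22 for Hes6 and -0.14 to 0.37 for Heyl. Another scaling moved the median log2 fold change of all genes to at most 0.06. The 95% intervals of the uncalled members Hes1 and Hey2 reach -0.90 and -0.79, and the part of depth in their width was not tested.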
